A study of Mus musculus with 6 samples.

Results

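The cathepsin transcripts of RAW264.7 cells are described here, with the level of each in cells given a miR-125b mimic and in cells given a negative control. Members were the 8 listed genes Ctsa, Ctsb, Ctsc, Ctsd, Ctsh, Ctsl, Ctss and Ctsz, found by matching Ensembl mouse gene identifiers to symbols. Each matched 1 row, giving 8 of the 16665 genes of the table. RAW264.7 is an established mouse line of monocyte and macrophage character that arose from a leukaemia. One group of 3 libraries came from cells transfected with the mimic, labelled as overexpressing miR-125b. The other 3 came from cells transfected with a negative control (NC), labelled wild type for miR-125b. All 6 share the same line and culture medium. The labels give neither the dose, the time after transfection nor the arm of the mimic, and the libraries do not measure the microRNA itself. The labels do not tell whether the libraries of a group were separate cultures. The p-values therefore measure only the spread between these libraries, which may be technical.

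Cathepsins are proteases of endosomes and lysosomes. Most are cysteine proteases of the papain family, while cathepsin D is an aspartic protease and cathepsin A a serine carboxypeptidase. They are made as inactive proenzymes, tagged with mannose 6-phosphate in the Golgi, carried to acidic compartments by receptors for that tag and activated there. Macrophages use them to degrade engulfed and autophagic cargo and to trim proteins for antigen presentation. When they leak from damaged lysosomes or are secreted, they can take part in inflammasome activation and in the breakdown of matrix in atherosclerotic plaques. Cystatins and serpins hold them in check outside the lysosome.

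The microRNA is shown first, because its seed, bases 2 to 8 in capitals, pairs with sites in 3′ untranslated regions (3′ UTRs). It is the mature 5p strand from RefSeq (GRCm38.p6), identical from both loci, on chromosome 9 (41581940 to 41581961) and chromosome 16 (77646279 to 77646300), plus strand in each.
mmu-miR-125b-5p: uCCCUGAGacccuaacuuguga

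For each gene the coding transcript with the longest 3′ UTR was taken, and its 3′ UTR was searched on the sense strand for TCAGGGA (7mer-A1), CTCAGGG (7mer-m8) and their union CTCAGGGA (8mer). Ctsa, Ctsc and Ctsd held 4 sites between them, none of them an 8mer. Ctsb, Ctsh, Ctsl, Ctss and Ctsz held none, although the 3′ UTRs of Ctsl (4761 bases) and Ctsb (3594 bases) are the longest of the family. Among 9312 tested genes with a 3′ UTR, 22.2% held a site. The sites are printed in capitals with the bases around them, because they are the only places in this family where the seed finds a match in the annotated 3′ UTR used. Coordinates are those of GRCm38. The Ctsa sites lie on the plus strand of chromosome 2 at 164839390 to 164839396 and 164839912 to 164839918. The Ctsc site lies on the plus strand of chromosome 7 at 88288940 to 88288946, and the Ctsd site on the minus strand of chromosome 7 at 142376546 to 142376552. The Ctsc 3′ UTR used has 2737 bases, where the longest coding transcript of the gene has 3220, so little of the transcript used is coding. Its site lies far before the end of the gene at 88310888. The 3′ UTRs of other Ctsc coding transcripts were not searched, so whether the full-length mRNA holds the site was not tested.
Ctsa, 7mer-m8 from base 156 of the 3′ UTR: cagcctgggcCTCAGGGcgtcacagac
Ctsa, 7mer-m8 from base 678: agcaaatcccCTCAGGGgccccagctg
Ctsc, 7mer-m8 from base 280: gagatgaagcCTCAGGGgggcttcagc
Ctsd, 7mer-A1 from base 19: ttctccactgTCAGGGAactggatcag

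The passenger strands found less. Ctsc held 1 site for miR-125b-2-3p, TGACTTG from base 1423 of its 3′ UTR (ggtttccagcTGACTTGggagacataa, plus strand, chromosome 7, 88290083 to 88290089). No member held a site for miR-125b-1-3p. Among the tested genes 20.4% and 2.58% held a site for these 2 strands.

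The promoters are shown for Ctsa and Ctsd because they carry TCACGTGA, the core of the element bound by TFEB and related factors that switch on lysosomal genes. RefSeq promoter windows (GRCm38.p6, 250 bases before to 50 after each start) were matched for 6 of the 8 members, with 7 windows in all, and Ctsb and Ctsh were not matched. On either strand TCACGTGA was present in 2 of the 7 windows and in 0.974% of 32851 mouse windows. The longer CLEAR motif, which contains it, was in none of the 7 and in 0.326% of all. The shorter E-box CACGTG, which lies inside it, also occurred alone at base −236 of Ctsl and base −245 of Ctsd, and it is in 7.15% of all windows. The letters GAGGAAGT, a form of the element bound by the macrophage factor PU.1, were at base −2 of Ctss and base −151 of Ctsc, against 3.20% of all windows. The first of the 2 Ctsa windows (chromosome 2, 164832622 to 164832921) spans the annotated start of the gene at 164832873 and holds neither TCACGTGA nor CACGTG. In the second Ctsa window (plus strand, chromosome 2, 164833523 to 164833822) TCACGTGA begins at base −13 and again at base 5. In the Ctsd window (minus strand, chromosome 7, 142387778 to 142388077) it begins at base −99. Capitals mark the E-box and TCACGTGA.
Ctsa: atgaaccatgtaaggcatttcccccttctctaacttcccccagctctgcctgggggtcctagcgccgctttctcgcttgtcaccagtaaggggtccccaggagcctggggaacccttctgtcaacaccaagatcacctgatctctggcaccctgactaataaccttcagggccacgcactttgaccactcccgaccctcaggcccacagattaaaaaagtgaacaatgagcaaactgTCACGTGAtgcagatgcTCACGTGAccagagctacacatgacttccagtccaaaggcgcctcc
Ctsd: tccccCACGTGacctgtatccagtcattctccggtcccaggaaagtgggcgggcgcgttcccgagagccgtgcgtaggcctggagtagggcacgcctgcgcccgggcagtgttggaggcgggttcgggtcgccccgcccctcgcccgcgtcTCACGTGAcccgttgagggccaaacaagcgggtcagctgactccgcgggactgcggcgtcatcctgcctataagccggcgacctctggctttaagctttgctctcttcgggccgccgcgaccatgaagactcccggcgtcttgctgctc

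Depth recovered from the FPKM values was 14508549 to 16781739 fragments per library. All 8 macrophage markers chosen for the check had a row, led by lysozyme (Lyz2) and Cd68. Their summed level was 7124 to 8602 FPKM in NC and 6366 to 6639 FPKM in mimic libraries, which did not overlap. Lyz2 alone read 5720 to 7838 FPKM across the 6 libraries, and the other 7 markers summed to 608 to 800.2 FPKM in NC and 599.9 to 646 FPKM with the mimic, which overlapped. The groups lay apart for 1 of the 8 markers, Lyz2, with all mimic values lower. All mimic values lay below all NC values in 7.49% of tested genes, and in 24.2% of those at 100 FPKM or more. In mean, 7 of the 8 markers were lower with the mimic. In bulk samples fewer cells of a type and less RNA per cell cannot be told apart. Of 5 fibroblast markers 1 had a row (Col1a1, at most 0.0453 FPKM in any library), of 5 lymphocyte markers 1 (Cd79a, at most 0.484 FPKM), and of 4 epithelial markers 0. NC replicate 3 stood apart from NC replicates 1 and 2. It had 13266 genes above 0, against 15141 to 15470 in the other 5 libraries, although at 14732630 fragments its depth was above that of mimic replicate 1. In 65.7% of the 10166 tested genes its log2 value lay nearer to the mean of the mimic libraries than to that of the other controls. Genes at a mean of 100 FPKM or more, where most cathepsins sit, were mostly lower with the mimic (262 of 351, 74.6%, median log2 fold change −0.18), against 43.7% of all tested genes. The part of these features in the results below was not tested.

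FPKM scales the fragments of a gene by its length and by the depth of the library, so levels can be set side by side between genes. In NC libraries Ctsa stood highest on this scale, at 366 ± 23.1 FPKM (SD, n = 3), followed by Ctss, Ctsb, Ctsd, Ctsz, Ctsl, Ctsc and, at 0.376 ± 0.168 FPKM, Ctsh. Ctsa lay above Ctss in the range of its 3 NC libraries, while Ctss and Ctsb overlapped, as did Ctsd and Ctsz. All other neighbours lay apart. In the mimic libraries the order was the same, with overlap between Ctsa and Ctss and between Ctss and Ctsb. The 8 genes together read 1342 to 1524 FPKM in NC and 1111 to 1329 FPKM in mimic libraries, and these ranges lay apart. As shares of the summed FPKM of the table they were 0.447% to 0.501% and 0.393% to 0.473%, which overlapped. The whole table summed to 300019 to 308447 FPKM in NC and 281109 to 284750 FPKM in mimic libraries.

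These levels depend on the gene length used. The deposited values fit a length that merges all annotated exons, which for Ctsl is 6489 bases, while one of its coding transcripts has 1971. Set to the shortest coding transcript of at least 1000 bases, Ctsl went from 42.8 ± 4.29 to 141 ± 14.1 on the same scale in NC (SD, n = 3), and its range then met that of Ctsz. Ctsa went to 682 ± 43.0 and Ctsb, at 378 ± 13.2, then stood apart above Ctss, at 310.4 ± 17.3. Comparisons of 1 gene between groups are not touched by this choice as long as the isoforms used are the same.

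**Figure D1:**
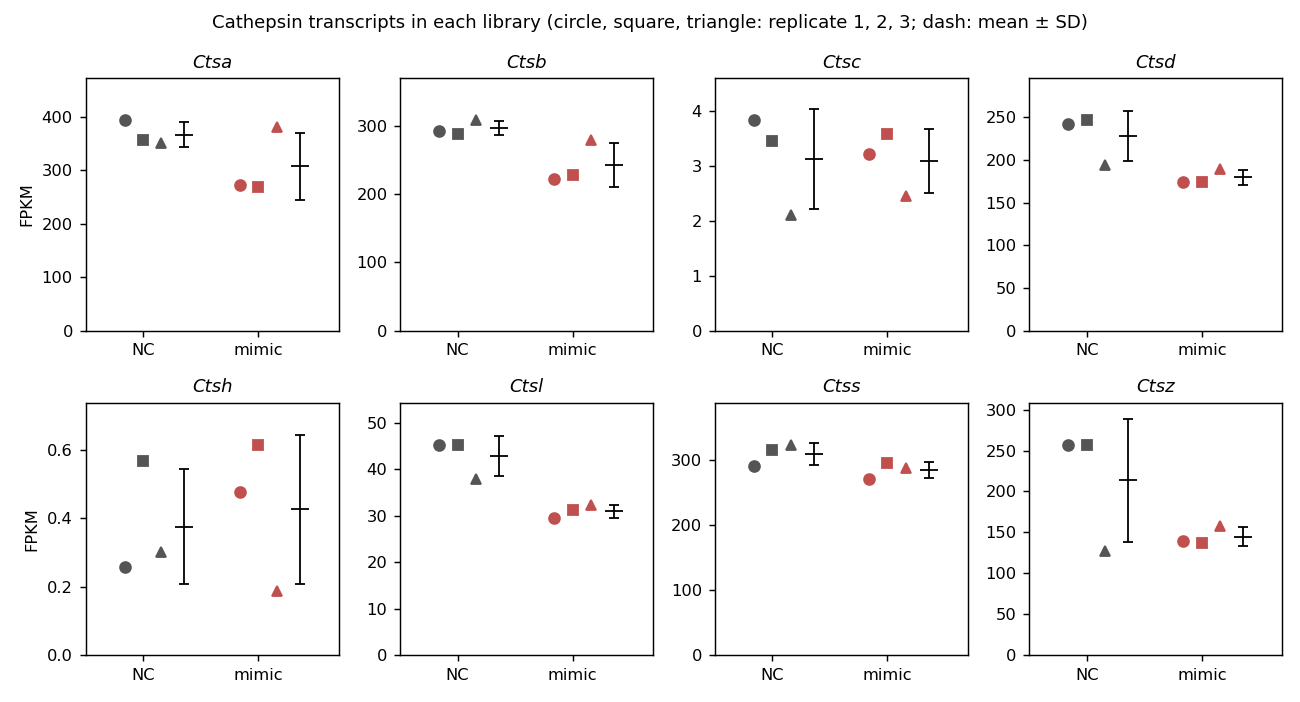
FPKM (vertical axis, linear, from 0) of each cathepsin in the 3 NC and 3 mimic libraries, with replicates 1, 2 and 3 as circle, square and triangle and the mean ± SD as a dash with bars. The groups lie apart for Ctsb, Ctsd and Ctsl, and for Ctsz NC replicate 3 (127 FPKM) lies below all 3 mimic libraries.

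No cathepsin passed the test between groups. In limma, on log2(FPKM + 1) with adjusted p under 0.05 over all genes, 0 of the 7 tested members and 0 of 10166 genes (0%) passed, and 1344 genes had an unadjusted p under 0.05; limma voom on recovered fragments also called 0. Of the 7, 6 had a negative log2 fold change and 1 (Ctsc, at 0.00) a positive one, with a median of −0.29 against 0.04 over all tested genes. At an unadjusted p under 0.05 stood 2 members, Ctsl and Ctsd, both lower (5.26% of all tested genes were lower at that level). In 3 of the 7, Ctsl, Ctsd and Ctsb, all mimic values lay below all NC values, as they did in 7.49% of tested genes and in 24.2% of those at 100 FPKM or more. At that level 5 cathepsins were tested, of which 5 were lower in the estimate and 2 had groups that lay apart.

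Cathepsin L (Ctsl, ENSMUSG00000021477; GRCm38 chromosome 13, 64359337 to 64370890, minus strand) is a potent lysosomal endopeptidase that also degrades elastin and collagen. It read 45.3, 45.3 and 37.9 FPKM in NC replicates 1, 2 and 3 and 29.5, 31.2 and 32.3 FPKM in the mimic libraries. Every mimic library lay below every NC library, and NC replicate 3 was the lowest control. The means were 42.8 ± 4.29 and 31.0 ± 1.40 FPKM (SD, n = 3), 27.6% lower with the mimic. The log2 fold change was −0.45 (SE 0.12, 95% interval −0.72 to −0.18) and did not pass limma (adjusted p = 0.332). It was the smallest p of the family. It lay between −0.72 and −0.41 in all 17 other settings tried, with adjusted p from 0.000146 to 0.770. Without NC replicate 3 it passed limma (−0.53, adjusted p = 0.00724). In that fit 12.2% of all tested genes passed as lower and 11.6% as higher. A further setting took a trend over gene length and GC content out of each library. With that trend out and NC replicate 3 left out, Ctsl was the 1 member that passed (−0.72, limma adjusted p = 0.0182), where 2.74% of the genes passed as lower and 0.938% as higher. Its annotated 3′ UTR holds no seed site.

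Cathepsin D (Ctsd, ENSMUSG00000007891; chromosome 7, 142375911 to 142388038, minus strand) is the main aspartic protease of lysosomes. Its values were 243, 246 and 194 FPKM in NC and 174, 175 and 189 FPKM in the mimic libraries. The groups lay apart, but NC replicate 3 lay close to mimic replicate 3. Means were 228 ± 29.1 and 179 ± 8.58 FPKM (SD, n = 3), with a log2 fold change of −0.33 (SE 0.13, 95% interval −0.64 to −0.03; limma adjusted p = 0.359). Without NC replicate 3 it passed (−0.44, limma adjusted p = 0.00988). After removal of that trend the estimate was −0.14 (limma adjusted p = 0.709), and under quantile normalisation it was −0.09. The 7mer-A1 site above starts 19 bases into its 3′ UTR.

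Cathepsin B (Ctsb, ENSMUSG00000021939; chromosome 14, 63122462 to 63145923, plus strand), a protease with both endopeptidase and exopeptidase action, is the member most often tied to inflammasome activation after lysosome damage. NC replicates 1 to 3 read 292, 288 and 308 FPKM, and the mimic libraries 221, 228 and 279 FPKM. Here NC replicate 3 was the highest control, and mimic replicate 3 was the mimic library nearest to the controls. The mean was 296 ± 10.3 FPKM in NC and 243 ± 31.9 FPKM with the mimic (SD, n = 3), 18.0% lower, and the log2 fold change was −0.29 (SE 0.13, 95% interval −0.59 to 0.01; limma adjusted p = 0.384). It was −0.40 without mimic replicate 3 (limma adjusted p = 0.273) and −0.03 under quantile normalisation.

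Cathepsin A (Ctsa, ENSMUSG00000017760; chromosome 2, 164832873 to 164841032, plus strand) protects the sialidase Neu1 and β-galactosidase in a lysosomal complex. It read 393, 357 and 349.7 FPKM in NC and 272, 269 and 379.8 FPKM in the mimic libraries. Mimic replicates 1 and 2 lay below every control, while mimic replicate 3 lay within the range of the controls. The means were 366 ± 23.1 and 307 ± 63.1 FPKM (SD, n = 3; log2 fold change −0.27, SE 0.16, 95% interval −0.65 to 0.11; limma adjusted p = 0.493). Without mimic replicate 3 the estimate was −0.43 and did not pass (limma adjusted p = 0.273), and under quantile normalisation it was −0.03. With 2 seed sites in the 3′ UTR searched, Ctsa holds the most in the family. The 3′ UTRs of its other coding transcripts were not searched.

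Cathepsin Z (Ctsz, ENSMUSG00000016256; chromosome 2, 174427493 to 174439039, minus strand) is a carboxypeptidase with an integrin-binding motif in its propeptide. The values were 257, 257 and 127 FPKM in NC and 139, 137 and 158 FPKM in the mimic libraries. NC replicates 1 and 2 agreed closely and lay far above all mimic libraries, whereas NC replicate 3 was the lowest of all 6. The mean was 213 ± 75.1 FPKM in NC and 145 ± 11.6 FPKM with the mimic (SD, n = 3). The log2 fold change was the most negative of the family, at −0.49, with the widest error (SE 0.27, 95% interval −1.12 to 0.15; limma adjusted p = 0.471). The size of this value depended on NC replicate 3. Without that library it was −0.82 and passed (limma adjusted p = 0.00524), and without NC replicate 1 or 2 it was −0.32 each time. It was negative in all 17 other settings. After removal of that trend it was −0.24. No seed site was found in its 3′ UTR of 379 bases.

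Cathepsin S (Ctss, ENSMUSG00000038642; chromosome 3, 95526786 to 95556403, plus strand) stays active at neutral pH and completes the cleavage of the invariant chain in MHC class II loading. NC libraries read 290.4, 315 and 324 FPKM, and mimic libraries 271, 295 and 287 FPKM. The groups overlapped, since NC replicate 1 lay below mimic replicate 2. The log2 fold change was −0.12 (SE 0.11, 95% interval −0.38 to 0.13; limma adjusted p = 0.644). Under quantile normalisation its sign turned, to 0.13. Its interval excludes a drop as large as the −0.45 estimated for Ctsl, but the difference between the 2 genes was not tested.

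The remaining members were scarce. Cathepsin C (Ctsc, ENSMUSG00000030560; chromosome 7, 88278085 to 88310888, plus strand), the dipeptidyl peptidase that activates granule serine proteases, read 3.82, 3.45 and 2.10 FPKM in NC and 3.22, 3.58 and 2.45 FPKM in the mimic libraries. Replicate 3 was the lowest library in both groups, and the groups overlapped throughout. The log2 fold change was 0.00 (SE 0.21, 95% interval −0.48 to 0.49; limma adjusted p = 0.998), on 179 to 346 fragments per library. Its sign turned with the scaling, at −0.03 under median scaling and −0.05 under quantile normalisation. Cathepsin H (Ctsh), an aminopeptidase, had a mean under 1 FPKM and did not enter the main test. It read 0.257, 0.569 and 0.302 FPKM in NC and 0.477, 0.616 and 0.188 FPKM in the mimic libraries, on 13 to 46 fragments. Those groups overlapped. In the fit with no filter its log2 fold change was 0.05 (95% interval −0.30 to 0.39; limma adjusted p = 0.938), on a scale that understates changes of such low values.

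**Figure D2:**
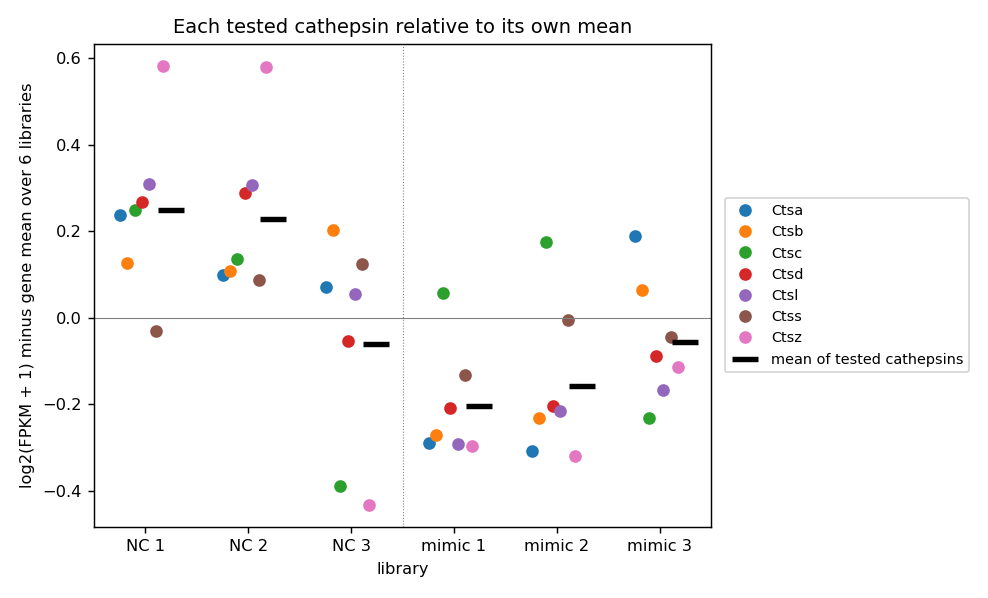
log2(FPKM + 1) of each tested cathepsin minus its own mean over the 6 libraries (vertical axis), by library (horizontal axis), with a black dash for the mean of the 7. The dash stands at 0.25 and 0.23 in NC replicates 1 and 2 and at −0.06 in NC replicate 3, the same as in mimic replicate 3, while mimic replicates 1 and 2 stand at −0.20 and −0.16.

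The members did not share 1 pattern across libraries. NC replicate 3 lay nearer to the mimic libraries than to the other controls in Ctsc, Ctsd and Ctsz, and nearer to the other controls in Ctsa, Ctsb, Ctsl and Ctss (3 of 7, against 65.7% of all tested genes). Mimic replicate 3 was the highest mimic library in Ctsa, Ctsb, Ctsd, Ctsl and Ctsz. With NC replicate 3 left out, 3 of the 7 passed limma (Ctsd, Ctsl and Ctsz), all lower, where 12.2% of all tested genes passed as lower and 11.6% as higher. With mimic replicate 3 left out as well, an alternative chosen after the values were seen, 5 passed, all lower: Ctsa (−0.47, adjusted p = 0.00232), Ctsb (−0.37, adjusted p = 0.00220), Ctsd (−0.48, adjusted p = 0.00119), Ctsl (−0.56, adjusted p = 0.00129) and Ctsz (−0.89, adjusted p = 0.000700). There 19.9% of all tested genes passed as lower and 23.1% as higher. The same 5 passed when each library was weighted by its spread (24.1% of all tested genes lower and 27.8% higher), a fit that gave NC replicate 3 the least weight and stopped before convergence. Ctss and Ctsc passed in none of these fits.

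**Figure D3:**
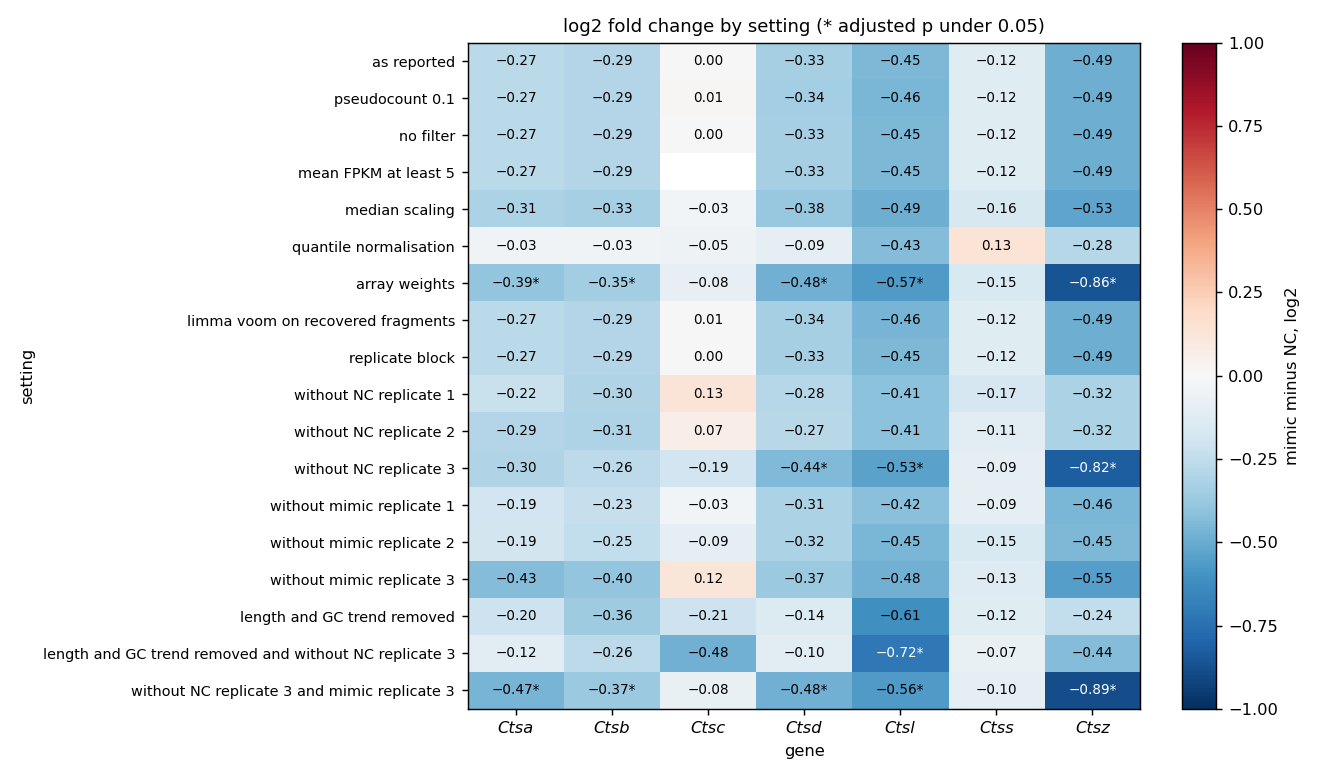
log2 fold change (mimic minus NC, colour and number) of the 7 tested cathepsins (columns) in the fit as reported and under 17 other settings (rows), with a star where the adjusted p was under 0.05 and a blank where a gene fell under the filter. Ctsl keeps a value between −0.72 and −0.41 in every row, whereas Ctsa, Ctsb and Ctsd come to within −0.03 to −0.09 of 0 under quantile normalisation.

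As shares of the summed cathepsin FPKM, which no single scale factor per library can move, the ranges of the groups overlapped for Ctsa, Ctsb, Ctss, Ctsd and Ctsz. Ctsa made up 25.1% ± 1.35 in NC and 25.6% ± 2.65 with the mimic (SD, n = 3), and Ctsb 20.4% ± 2.20 and 20.3% ± 0.620. Ctss made up 21.3% ± 2.57 and 24.0% ± 2.18, and Ctsd 15.6% ± 0.964 and 15.1% ± 0.750. For Ctsl the share ran from 2.82% to 2.99% in NC and from 2.43% to 2.74% with the mimic, and it was the one abundant member whose shares did not overlap. Ctsz ran from 9.44% to 17.0% in NC, where NC replicate 3 had the lowest share, and from 11.9% to 12.5% with the mimic. These shares were not tested.

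Genes around the cathepsins were grouped by role. Beside the counts of direction below, 43.7% of all tested genes were lower, and 74.6% of those at a mean of 100 FPKM or more. Beside the groups that lay apart below, all mimic values lay under all NC values in 7.49% of tested genes. Among those at a mean of 100 FPKM or more the share was 24.2%. Cst3, Cstb, Lgmn, Psap, Grn, Cd74 and Ifi30 sit at that level. Of 16 other cathepsin and napsin genes, 5 had a row here and 4 were tested, of which 0 passed limma, 1 was higher and 3 lower. Napsa, an aspartic protease related to cathepsin D, had the most negative estimate of all the genes in these groups. It read 8.63, 8.97 and 5.32 FPKM in NC and 3.77, 4.42 and 4.94 FPKM with the mimic, so the groups lay apart (log2 fold change −0.66, SE 0.20, limma adjusted p = 0.332). Without NC replicate 3 it passed (−0.87, limma adjusted p = 0.00715). For this call and all those below without that library, 12.2% of all tested genes passed as lower and 11.6% as higher. Ctsf stood at −0.13 (SE 0.23), Ctse at −0.16 (SE 0.18) and Ctso at 0.13 (SE 0.14). For Ctsf NC replicate 3 read 8.12 FPKM against 15.6 and 15.0 in the other controls, and without it the gene passed (−0.41, limma adjusted p = 0.0145). Ctsk, the collagenase of osteoclasts, lay under the filter at 0.597 ± 0.211 and 0.714 ± 0.303 FPKM.

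Among inhibitors, 18 genes were listed, 6 had a row and 4 were tested. None passed (0 of 4, with 0 at an unadjusted p under 0.05), and all 4 estimates were negative, with a median of −0.27. Cystatin C (Cst3), the main secreted inhibitor, was more abundant per length than any cathepsin, at 1017 ± 128 FPKM in NC and 925 ± 116 FPKM with the mimic (log2 fold change −0.14, SE 0.16). After removal of that trend its sign turned, to 0.11. Cystatin B (Cstb), which acts in the cytosol, read 169, 168 and 106 FPKM in NC and 119, 119 and 91.2 FPKM with the mimic (−0.40, SE 0.21). Cystatin F (Cst7), an inhibitor sorted to lysosomes, read 21.4, 19.6 and 8.96 FPKM in NC and 12.2, 11.9 and 10.3 FPKM with the mimic (−0.42, SE 0.30). In both, replicate 3 was the lowest of its group, and without NC replicate 3 both passed limma (Cstb −0.62, adjusted p = 0.0188; Cst7 −0.79, adjusted p = 0.00632). Serpinb6a, an intracellular serpin, had the tightest values, at 27.3 ± 0.364 and 25.7 ± 0.0927 FPKM with groups apart (−0.08, SE 0.10).

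Of 6 other lysosomal peptidases, all were tested and 0 passed, 5 being lower and 1 higher. At an unadjusted limma p under 0.05, 2 were lower (5.26% of all tested genes were lower at that level). Legumain (Lgmn), the asparaginyl endopeptidase that processes cathepsins B and L further, read 357, 337 and 299 FPKM in NC and 261, 254 and 288 FPKM with the mimic. The groups lay apart (log2 fold change −0.30, SE 0.12, limma adjusted p = 0.363). Scpep1, a serine carboxypeptidase of the same fold as cathepsin A, also lay apart, at 86.8 ± 2.72 and 70.003 ± 2.08 FPKM (−0.31, SE 0.10, limma adjusted p = 0.332). Both passed without NC replicate 3 (−0.37 and −0.33; limma adjusted p = 0.0230 and 0.0176). The tripeptidyl peptidase Tpp1 stood at −0.01 (SE 0.10, 95% interval −0.25 to 0.23), Dpp7 at −0.06 (SE 0.15), Cpq at −0.04 (SE 0.16) and Prcp at 0.16 (SE 0.12).

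Of the 4 partners of cathepsins, 0 passed and all 4 were lower in the estimate. Neu1, the sialidase that cathepsin A stabilises, stood at −0.34 (SE 0.17), and its complex partner Glb1 at −0.10 (SE 0.24). Without NC replicate 3 both passed limma (−0.51 and −0.38; adjusted p = 0.0139 and 0.0219). Prosaposin (Psap), which travels to lysosomes with procathepsin D, read 394, 367 and 443 FPKM in NC and 295, 287 and 469 FPKM with the mimic. As for Ctsa, mimic replicates 1 and 2 lay below every control and mimic replicate 3 did not. Psap stood at −0.23 (SE 0.21) and progranulin (Grn), a precursor that cathepsins cut into granulins, at −0.18 (SE 0.17). After removal of that trend and of NC replicate 3 both turned, to 0.13 and 0.14.

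Genes that carry cathepsins to lysosomes pointed both ways. Of 14 listed, 13 were tested, 0 passed, 6 were higher and 7 lower. Unadjusted, 3 had a p under 0.05, all higher (7.96% of all tested genes were higher at that level). In 4 of the 13 all mimic values lay above all NC values, as in 12.6% of tested genes. Igf2r, the large mannose 6-phosphate receptor, read 16.9, 15.4 and 13.8 FPKM in NC and 19.6, 18.8 and 22.6 FPKM with the mimic. Its log2 fold change was 0.38 (SE 0.13, limma adjusted p = 0.332). Gnptab, the transferase that makes the mannose 6-phosphate tag, stood at 25.7 ± 1.43 and 33.3 ± 4.003 FPKM (0.36, SE 0.13, limma adjusted p = 0.337). Ap1g1, a subunit of the AP-1 coat that packs these receptors, stood at 20.96 ± 0.841 and 26.6 ± 0.785 FPKM (0.33, SE 0.10, limma adjusted p = 0.332). The small mannose 6-phosphate receptor M6pr went the other way in the estimate, at 84.8 ± 9.42 and 71.3 ± 7.84 FPKM (−0.25, SE 0.13). After removal of that trend Ap1g1 was 0.17. It passed with NC replicate 3 left out (0.36, limma adjusted p = 0.0191), while Igf2r and Gnptab did not pass with any 1 library left out.

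**Figure D4:**
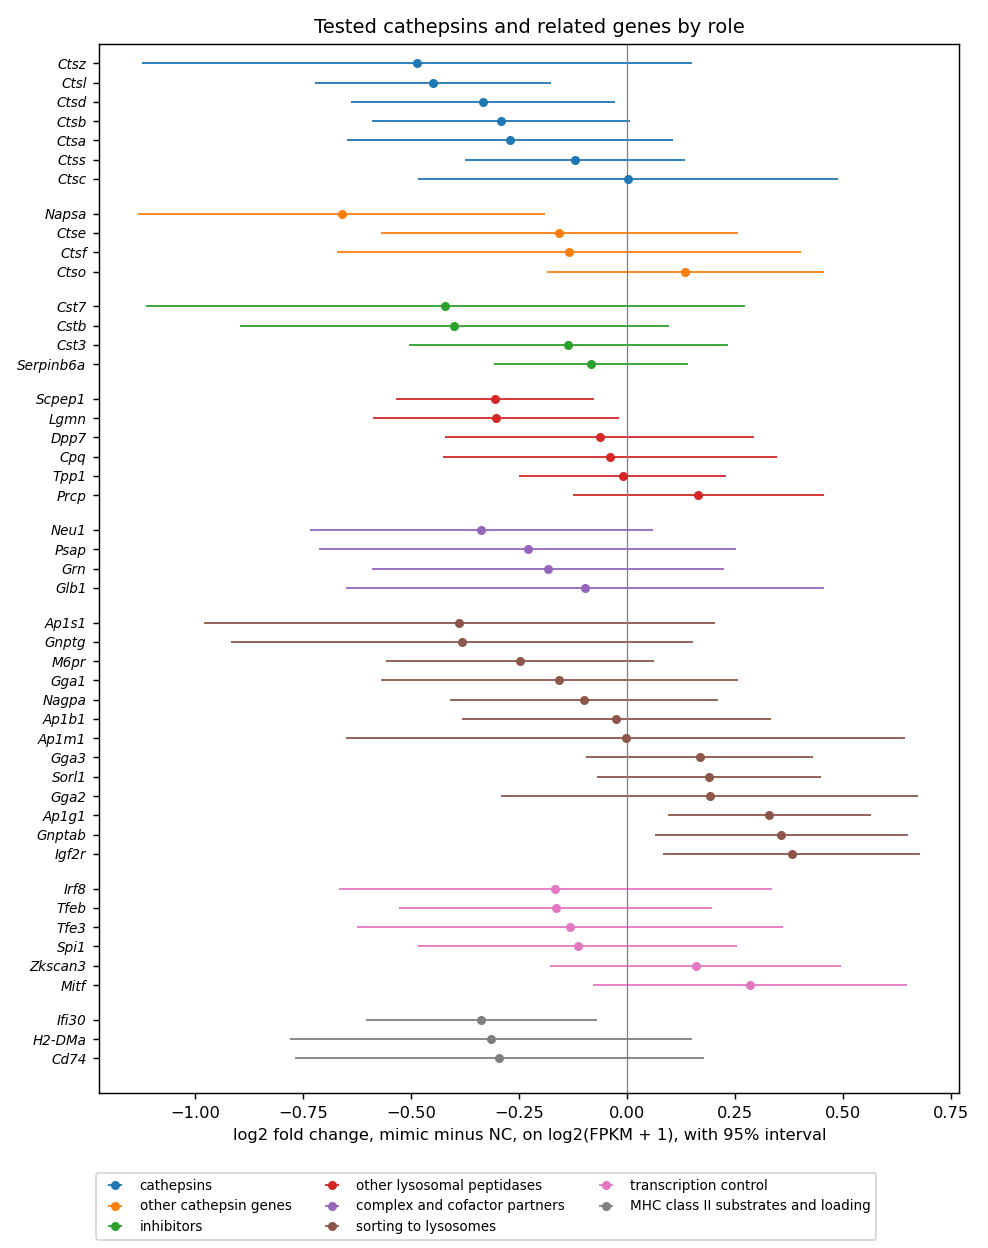
log2 fold change (horizontal axis, mimic minus NC on log2(FPKM + 1)) with its 95% interval for every tested gene of the 8 groups (vertical axis, coloured by role). The intervals of Ctsl, Ctsd, Napsa, Lgmn, Scpep1 and Ifi30 lie below 0 and those of Igf2r, Gnptab and Ap1g1 above it, none of them past the adjusted threshold. An interval that leaves out 0 equals an unadjusted limma p under 0.05. At that level 5.26% of all tested genes were lower and 7.96% higher.

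Among factors that control these genes 8 were listed, 6 tested and 0 passed, with 2 higher and 4 lower. Mitf, which shares the TCACGTGA element with TFEB, read 23.9, 24.4 and 34.1 FPKM in NC and 34.5, 33.8 and 31.4 FPKM with the mimic, NC replicate 3 lying among the mimic libraries (log2 fold change 0.28, SE 0.16). Without NC replicate 3 it passed (0.44, limma adjusted p = 0.0117). Tfeb itself was at 2.48 ± 0.365 and 2.10 ± 0.337 FPKM (−0.17, SE 0.15), the zinc finger repressor Zkscan3 at 0.16 (SE 0.14) and the myeloid factor Irf8 at −0.17 (SE 0.21), which passed without NC replicate 3 (−0.41, limma adjusted p = 0.0258). Of 7 genes of MHC class II loading, on which Ctss acts, 3 were tested and 0 passed, all 3 lower. The lysosomal thiol reductase Ifi30 read 257, 237 and 242 FPKM in NC and 198, 176 and 209 FPKM with the mimic, with groups apart (−0.34, SE 0.11, limma adjusted p = 0.332). With NC replicate 3 left out it passed (−0.35, limma adjusted p = 0.0406). The invariant chain Cd74 stood at 411 ± 87.2 and 333 ± 59.0 FPKM (−0.30, SE 0.20) and H2-DMa at −0.32 (SE 0.20). The class II chains H2-Ab1 and H2-Eb1 were under 0.4 FPKM in every library.

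The 5 genes whose profile over the 6 libraries was most like the mean of the tested cathepsins, among 4133 genes at 10 FPKM or more, were Lrrc42, Impdh2, Zfand3, Atp5b and Ybx3. Likeness was the root mean square difference of the centred log2 values, 0.0258, 0.0259, 0.0330, 0.0412 and 0.0436 in that order, where lower is more alike. Impdh2, an enzyme of guanine nucleotide synthesis, read 57.7, 58.2 and 48.04 FPKM in NC and 41.4, 43.0 and 45.9 FPKM with the mimic. These genes were chosen for this pattern, so their values are a description, with no test. By the same measure Ctsd was the cathepsin nearest to the family mean, at 0.0343, with 3 other genes nearer. Ctsz was the farthest, at 0.262, with 2144 other genes nearer. Each member enters the family mean while the other genes do not, so these counts favour the members.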

How the data were processed

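The authors deposited 1 table of FPKM values, per the file name, with fastp, HISAT2, DESeq2 and build mm10 named in the submitters' processing notes. The sources used here do not give versions, annotation, counting tool, strand setting or the filter behind the table. The library kit was a SMARTer mRNA kit, per the labels' protocols. Every gene was above 0 in at least 2 libraries. Symbols, positions and lengths came from GENCODE M21 (GRCm38), which held 16582 of the 16665 identifiers; 83 were unmatched. Depth was recovered from the steps of low FPKM values, of which 98.7% to 99.1%, up to 20 fragments, were whole within 0.1 fragment. 

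The test was limma (version 3.58.1, R version 4.3.3) over the 10166 genes whose mean FPKM reached 1. Its input was log2(FPKM + 1) of the deposited values, which understates changes of low genes, with a mean-variance trend, two-sided, Benjamini-Hochberg adjusted, threshold 0.05. SE and 95% intervals are from that fit, and SD is over 3 libraries. Alternatives changed the pseudocount, filter, scaling, weights, count model, replicate block, length and GC trend (a loess surface over exon length and transcript GC, span 0.5) and the libraries used. Same-numbered libraries deviated together from their group means (r = 0.287, 0.183 and 0.339 across genes for numbers 1, 2 and 3). The main test was unpaired, and a replicate block that pairs libraries by number was fitted only as an alternative. The numbers are not specific in every case: NC 2 with mimic 1 gave r = 0.308, and NC 1 with mimic 2 gave 0.0869.

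The members and gene lists were chosen with earlier results of these data known. The genes named are all cathepsins, the tested members of the lists of other cathepsins, inhibitors, peptidases and partners, up to 4 with the smallest p from the other 3 lists, and the 5 nearest in profile. Values of other genes given for context (Ctsk, H2-Ab1, H2-Eb1) were chosen after being seen. Python 3.11.15 and pandas 2.3.3 were used for tables.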

Additional observations from a re-analysis of the deposited data

How the results depend on the processing

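In the 10166 genes tested 0 passed, and 0 passed under 13 of the 17 other settings. With array weights, whose estimation stopped before convergence, 5276 passed. With the trend over length and GC taken out and NC replicate 3 left out 373 passed, and without NC replicate 3 and mimic replicate 3, an alternative chosen after seeing the data, 4377. Leaving out 1 library gave 0 to 2412, the highest without NC replicate 3. The median log2 fold change of the 7 cathepsins (−0.29) was −0.049 under quantile normalisation, −0.39 with array weights and −0.47 without both replicates 3, and −0.40 to −0.23 with 1 library left out. The replicate block left the count at 0 and the median at −0.29 and changed no other call. The causes were not tested.

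The sign of some log2 fold changes turned. Ctsc (0.0016) was −0.028 under median scaling, −0.049 under quantile normalisation, −0.080 with array weights, −0.21 with the trend out, −0.48 with NC replicate 3 also left out, −0.076 without both replicates 3, and −0.19 to 0.13 with 1 library left out. Under quantile normalisation Ctss was 0.13, Atp5b 0.021, Cst3 0.0014, Psap 0.033 and Tpp1 0.039. With array weights Cpq was 0.0027 and Tpp1 0.027. With the trend out Cst3 was 0.11, Ctso −0.051 and Dpp7 0.050, and without NC replicate 3 as well Cst3 was 0.15, Ctso −0.039, Dpp7 0.043, Grn 0.14, Psap 0.13, Tfeb 0.050 and Tpp1 0.041. With libraries left out Cpq ran from −0.15 to 0.070, Ctsf from −0.43 to 0.017, Dpp7 from −0.22 to 0.017, Glb1 from −0.42 to 0.076 and Tpp1 from −0.047 to 0.030. Without both replicates 3 Cpq was 0.036 and Tpp1 0.00083. Ctsh rests on 13 to 46 fragments per library and was fitted only with no filter.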
